A study of Mus musculus with 8 samples.

Results

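The barcodes described here are Fabp1-high epithelial barcodes of a single-cell RNA library from sorted mouse small intestine. A barcode marks the transcripts of 1 droplet, in most cases 1 cell, and transcripts are counted as unique molecular identifiers (UMIs). Barcodes were kept with at least 500 detected genes and at most 20% of their UMIs from mitochondrial genes. A kept barcode was called Fabp1-high when Fabp1 gave at least 0.5% of its UMIs and when Slc10a2, the bile acid uptake transporter of the ileum, Enpp7, an alkaline sphingomyelinase that needs bile salts, and Cubn, a receptor for vitamin B12 with its carrier, summed to fewer than 5 UMIs. This rule found 113 barcodes, 4.10% of the 2756 kept barcodes of the library and 0.578% of the 19539 barcodes in the 4 single-cell libraries of the series. Fabp1 and these 3 genes chose the barcodes, so their levels are given as a description. The barcodes were selected on these measured UMIs. All 113 barcodes also held at least 1 UMI of Epcam, an adhesion protein of epithelial cells.

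The series concerned lymphatic vessels and intestinal stem cells. The small intestinal cells came from C57BL/6 mice and from Lgr5-eGFP-ires-CreERT2 mice on that background, which carry a reporter in the stem cell gene Lgr5, and live cells were sorted with enrichment for LGR5-positive stem cells and for lymphatic endothelial cells positive for CD31, PDPN and LYVE1. The number and age of the animals, the stretch of small intestine taken and the genotype behind each barcode were not given in the sources used here. Mature enterocytes were not a target of the sort, so the share of Fabp1-high barcodes describes this sorted library and not the tissue. Other libraries used here were 1 of sorted large intestine, 1 of control small intestinal organoids and 1 of cocultured organoids (both passage 1, with 16 wells pooled), and 4 Visium sections, 2 of small and 2 of large intestine, which are technical duplicates. The titles of the Visium sections begin with WT, for wild type. There was 1 library per single-cell condition, so no difference below has a replicate check and no test was made; intervals are exact 95% intervals that cover counting error only.

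Enterocytes are the absorptive cells of the intestinal villus. They arise from stem cells in the crypt, move up the villus while they change their gene expression, and are shed at the tip. Their tasks differ along the gut: enterocytes of the duodenum and jejunum take up fat, sugars and iron, whereas those of the ileum recover bile acids. Fabp1 encodes the liver-type fatty acid binding protein, which is abundant in the proximal small intestine and binds fatty acids in the cytosol, and Fabp6 encodes the ileal relative that binds bile acids. Rbp2 is the cellular retinol binding protein of enterocytes, Adh6a an alcohol dehydrogenase, Gsta1 a glutathione transferase and Reg1 a secreted lectin of the regenerating gene family.

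The sequences directly before the start sites of Fabp1, Rbp2 and Reg1, 3 marker genes of these barcodes, are shown with that of Fabp6, the gene with the lowest ratio to the bile acid gene enterocytes described below. Each is 250 bases long, written 5′ to 3′ on the gene's own strand, from RefSeq on GRCm38.p6, and all 4 symbols were matched. The windows are chr6:71199629-71199878 for Fabp1, chr9:98490287-98490536 for Rbp2 and chr6:78425733-78425982 for Reg1, all on the plus strand, and chr11:43601563-43601812 on the minus strand for Fabp6. Capitals mark matches on either strand to short forms of the sites of factors that are active in enterocytes. Searched for HNF1 was GTTAAT. Searched for HNF4 were CAAAGTCCA and the spelling CAAAGGTCA. The zinc finger factors Gata4 and Gata6 were given by AGATAA, the intestinal homeobox factor Cdx2 by TTTATG and the core promoter box by TATAAA.
Fabp1: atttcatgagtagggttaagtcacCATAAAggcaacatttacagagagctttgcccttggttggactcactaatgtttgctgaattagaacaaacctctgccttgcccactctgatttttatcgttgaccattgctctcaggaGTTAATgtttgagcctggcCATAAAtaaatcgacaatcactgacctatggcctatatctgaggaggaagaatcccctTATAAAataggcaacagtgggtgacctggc
Rbp2: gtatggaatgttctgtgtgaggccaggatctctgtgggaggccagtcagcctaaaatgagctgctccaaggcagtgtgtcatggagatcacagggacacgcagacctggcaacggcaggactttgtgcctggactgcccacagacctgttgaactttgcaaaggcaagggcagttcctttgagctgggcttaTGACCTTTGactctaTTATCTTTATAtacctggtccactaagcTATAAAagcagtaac
Reg1: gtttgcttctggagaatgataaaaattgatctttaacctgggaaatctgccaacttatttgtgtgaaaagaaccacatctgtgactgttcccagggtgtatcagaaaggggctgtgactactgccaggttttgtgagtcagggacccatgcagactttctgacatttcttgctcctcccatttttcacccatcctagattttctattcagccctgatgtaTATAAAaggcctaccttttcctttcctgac
Fabp6: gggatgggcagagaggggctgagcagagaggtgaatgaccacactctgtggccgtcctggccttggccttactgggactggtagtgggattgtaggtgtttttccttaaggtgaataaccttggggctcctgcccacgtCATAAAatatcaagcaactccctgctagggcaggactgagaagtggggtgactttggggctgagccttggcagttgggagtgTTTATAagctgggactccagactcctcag
The Fabp1 window held GTTAAT at 107 to 102 bases before the start, TTTATG in reverse at 226 to 221 and at 88 to 83, and TATAAA at 30 to 25. In the Rbp2 window CAAAGGTCA lay in reverse at 58 to 50 bases before the start, AGATAA in reverse at 43 to 38, and TATAAA in reverse at 38 to 33, where it shares a base with AGATAA, and forward at 15 to 10. The Reg1 window held only TATAAA, at 30 to 25. The Fabp6 window held TTTATG in reverse at 111 to 106 and TATAAA in reverse at 29 to 24. Of 27025 windows of the same length, 6.52% held GTTAAT, 0.381% CAAAGTCCA, 0.407% CAAAGGTCA, 10.3% AGATAA, 11.1% TTTATG and 13.0% TATAAA. The letters CAAAGGTCA were added to the search after the windows had been read, and a match is a stretch of letters, not a measured site. Fabp1 and Reg1 both lie on chromosome 6, at 71199879 to 71205034 and 78425983 to 78428668, Rbp2 and Gsta1 on chromosome 9, at 98490537 to 98509771 and 78230669 to 78242683, and Adh6a on chromosome 3, at 138313286 to 138331134.

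The enterocyte label held for 99 of the 113 barcodes and went against the data for 14. In 99 barcodes the summed UMIs of 10 enterocyte markers (Alpi, Vil1, Fabp2, Apoa1, Apoa4, Sis, Anpep, Rbp2, Slc5a1, Krt20) ranged from 107 to 3780, with a median of 558, while those of 7 tuft cell markers were at most 5 and those of 7 goblet cell markers at most 26. The same 99 had up to 542 UMIs of 8 Paneth cell markers (median 59) and up to 58 of 6 stem cell markers (median 1). A group of 12 barcodes had 84 to 395 tuft marker UMIs and only 8 to 21 enterocyte marker UMIs. Tuft cells are chemosensory epithelial cells, and Dclk1, a kinase that marks them, had between 1548 and 6194 CPM (UMIs of the gene per 1000000 UMIs of the class or barcode) in each of the 12. The remaining 2 barcodes had 1666 and 1981 goblet marker UMIs, from the mucus-secreting lineage, and 98 and 123 enterocyte marker UMIs. The 12 barcodes were 12.6% (6.70% to 21.0%) of the 95 kept barcodes with at least 50 tuft marker UMIs; the others had Fabp1 below the limit. The tuft-profile barcodes stood apart in tuft marker UMIs and the goblet-profile barcodes in goblet marker UMIs, whereas 1 goblet-profile barcode lay within the enterocyte marker range of the 99. The limits between the profiles (50 tuft or 500 goblet marker UMIs) were set after the values were seen. Results are therefore given for all 113 barcodes and for the 99 with an enterocyte profile.

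**Figure D1:**
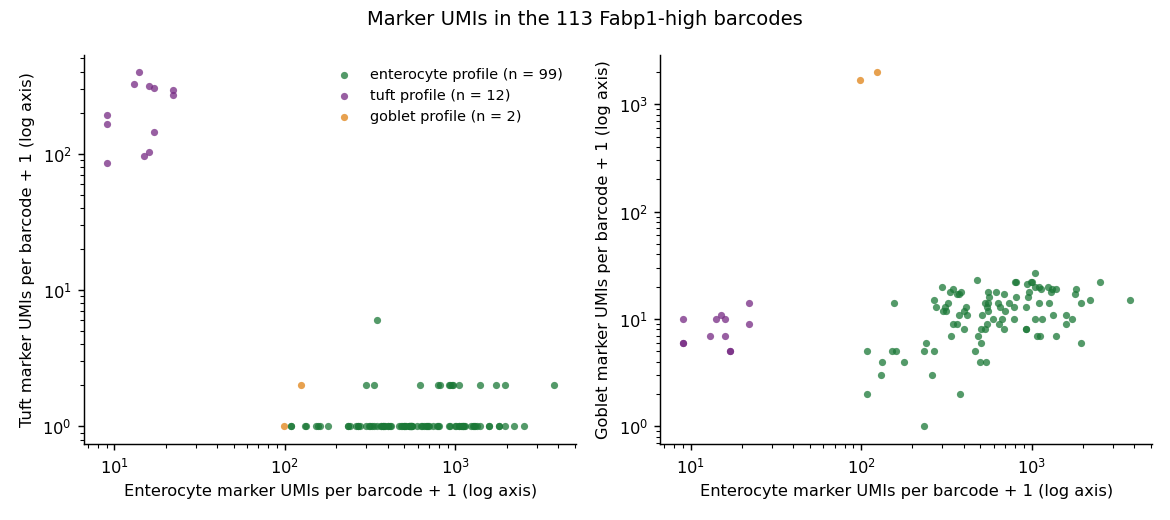
UMIs of 10 enterocyte markers (horizontal axis) against those of 7 tuft markers (left) and 7 goblet markers (right) in each of the 113 Fabp1-high barcodes, as UMIs + 1 on log axes. The 12 tuft-profile barcodes stand apart at 84 to 395 tuft marker UMIs, and the 2 goblet-profile barcodes at 1666 and 1981 goblet marker UMIs.

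The tuft-profile barcodes carried Fabp1 with few UMIs of the other marker genes. Their Fabp1 level was 9138 CPM (1656 UMIs), beside 11565 CPM in the enterocyte-profile barcodes and 50.6 CPM in 751 background barcodes, which had no Epcam UMI and at least 2 UMIs of immune, endothelial or mesenchymal genes. Rbp2, by contrast, stood at 16.6 CPM (3 UMIs) in the tuft-profile barcodes, at 7168 CPM in the enterocyte-profile barcodes and at 38.9 CPM in the background. Reg1 and Gsta1 had 1 UMI each in the 12 tuft-profile barcodes. Adh6a had 8 UMIs, in 4 of the 12, and stood at 44.1 CPM beside 879 CPM in the enterocyte-profile barcodes and 5.72 CPM in the background. With each barcode thinned at random to 2000 UMIs Adh6a was seen in 3 of the 12 (25.0%, interval 5.49% to 57.2%), beside 0.902% of the background. At 1000 UMIs it was seen in 0 of the 12 (interval up to 26.5%), beside 0.674% of the background. With 8 UMIs in all, the thinned share depends on the random draw, and nothing is read from it. Adh1, an alcohol dehydrogenase, was present in all 12, at 491 to 3045 CPM.

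The 113 barcodes had a median of 33159 UMIs (1323 to 59205) and 4988 detected genes, beside 23738 UMIs in the 1758 other kept barcodes with Epcam and 3376 UMIs in the background barcodes. Mitochondrial genes gave a median of 9.90% of their UMIs. Among the 99 enterocyte-profile barcodes, 11 had fewer than 10000 UMIs; these had a median of 1.85% mitochondrial UMIs and 3.30% Fabp1, beside 10.3% and 0.848% in the other 88. Their part in the results was not tested beyond leaving out members of low depth. Of 8842 barcodes in the library, 5497 were over the mitochondrial limit. Only 1 and 4 barcodes of the library were shared with the organoid libraries and 25 with the large intestinal one, none of them Fabp1-high. Among the 13 Fabp1-high barcodes just inside the limit, with 0.5% to 0.6% Fabp1, Rbp2 stood at 3170 CPM and Adh6a at 546 CPM; in the 21 barcodes just outside, with 0.4% to 0.5%, they stood at 2171 and 316 CPM. The limit cuts through a continuous range.

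Markers of other cells were lower in the enterocyte-profile barcodes than in the other Epcam barcodes. The 8 Paneth markers summed to 2120 CPM, beside 117764 CPM in the other Epcam barcodes, and Lyz1, a Paneth cell lysozyme, was at 173 beside 8977 CPM. The 7 B and plasma cell markers summed to 202 CPM, beside 9678 CPM in the other Epcam barcodes and 259 CPM in 93 bile acid gene enterocytes, the class described below. T and NK cell markers were at 0.318 beside 14.6 CPM with 8 of 9 genes at 0, macrophage markers at 9.86 beside 128 CPM, and fibroblast and muscle markers at 5.73 beside 127 CPM with 3 of 8 genes at 0. The part of the Paneth and plasma cell transcripts in the results was not tested.

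Fabp1 ranged from 5023 to 44176 CPM over the 99 enterocyte-profile barcodes, with a median of 9101 CPM. The lower end of that range is set by the rule. Rbp2 was present in all 99, from 1159 to 29428 CPM with a median of 6587 CPM. Adh6a had a median of 849 CPM (0 to 2887) and UMIs in 96 of 99 barcodes, and Gsta1 a median of 425 CPM (0 to 6423), also with UMIs in 96. Over all 113 barcodes Adh6a had UMIs in 90.3% and Gsta1 in 85.8%. Reg1 was spread unevenly: its median was 121 CPM, its highest value 49723 CPM, and 30 of the 99 barcodes had none. Only 6 barcodes held 50% of all its UMIs. Of the others, 25 had up to 200 CPM, 18 had 200 to 1000 CPM, 15 had 1000 to 5000 CPM and 11 had over 5000 CPM.

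**Figure D2:**
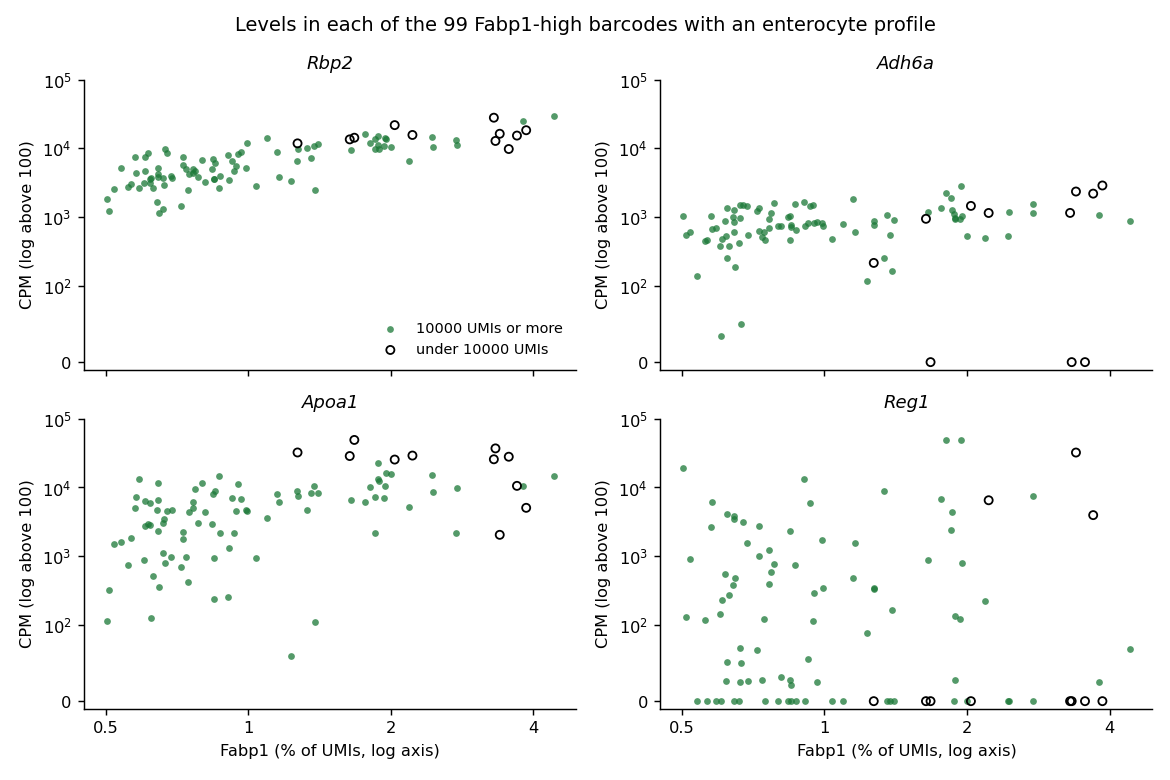
CPM of Rbp2, Adh6a, Apoa1 and Reg1 in each of the 99 enterocyte-profile barcodes (vertical axes, linear to 100 and log above) against Fabp1 as a share of UMIs (horizontal axis, log); open circles are the 11 barcodes with fewer than 10000 UMIs. Rbp2 spans 1159 to 29428 CPM with no barcode at 0, whereas Reg1 is at 0 in 30 barcodes and over 5000 CPM in 11.

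After each barcode was thinned at random to 2000 UMIs, Rbp2 was seen in 97 of 97 enterocyte-profile barcodes (interval 96.3% to 100%; 2 shallower barcodes left out), Adh6a in 77.3% (67.7% to 85.2%), Gsta1 in 60.8% (50.4% to 70.6%) and Reg1 in 41.2% (31.3% to 51.7%). Over all 111 Fabp1-high barcodes deep enough, the shares were 89.2%, 68.5%, 54.1% and 36.0%. Each class was thinned in a random draw of its own, so shares of a class and of its parts need not add up. In the 665 background barcodes of that depth, which should lack these genes, the shares were 7.07%, 0.902%, 0.451% and 1.35%. In the 93 bile acid gene enterocytes they were 69.9%, 29.0%, 21.5% and 3.23%. The 1680 other Epcam barcodes of that depth had shares of 21.8%, 9.40%, 6.43% and 6.31%. These 4 are marker genes of the Fabp1-high barcodes, so their shares are given as a description. Without thinning the shares of the 4 genes were 100%, 97.0%, 97.0% and 69.7% in the 99 barcodes. In the background they were 16.0%, 2.66%, 0.399% and 2.93%. The median depths of these 2 classes were 34621 and 3376 UMIs. Fabp6 went the other way: at 2000 UMIs it was seen in 6.19% (2.30% to 13.0%) of the 97, no more than the 12.9% (10.5% to 15.7%) of the background, and in 65.6% of the 93 bile acid gene enterocytes. Without thinning the Fabp6 shares were 47.5%, 23.6% and 86.0%, and the Fabp1-high barcodes were far deeper than the background, so the share in the Fabp1-high barcodes is read as background.

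The comparison with the other 1758 kept barcodes with Epcam describes what sets the Fabp1-high barcodes apart in a library rich in stem, Paneth and goblet cells. Because Fabp1, the gene that chose them, is itself an enterocyte gene, the contrast is fixed in part by the rule, and nothing is read from its counts. Levels were CPM pooled over the barcodes of a class, and a gene was counted when its class with more UMIs had at least 100 and its log2 ratio was at least 1 or at most -1, that is 2-fold. Of 11342 genes, 923 (8.14%) were higher and 2695 (23.8%) lower, and the median log2 ratio was -0.18; with the 99 enterocyte-profile barcodes 954 (8.41%) were higher and 3158 (27.8%) lower, with a median of -0.28. With ratios centred on the median, 1305 were higher and 2367 lower. All 40 measured genes of a list for proximal enterocytes were higher by at least 2-fold, with a median of 2.48 (2.58 with the 99). Of 37 measured genes of a distal enterocyte list 21 were also higher and 4 lower (median 1.14). With the 99 barcodes 22 of these 37 were higher and 4 lower. The highest ratios were those of Sult6b2, a sulfotransferase, at 5.35, and Reg1, at 4.01, followed by Papss2, which makes the sulfate donor of sulfotransferases, at 3.67, and Akr1b7, an aldo-keto reductase, at 3.57. Sult6b2 rested on 101 UMIs in 22 barcodes, and 4 barcodes held 50% of them.

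Adh6a stood at 821 beside 70.5 CPM (log2 ratio 3.54, interval 3.47 to 3.61), Rbp2 at 6695 beside 575 CPM (3.54, 3.51 to 3.57), Gsta1 at 582 beside 51.2 CPM (3.51, 3.42 to 3.59) and Reg1 at 1623 beside 101 CPM (4.01, 3.96 to 4.07). These 4 are marker genes chosen with earlier results of these data known. Their place among the 15 highest ratios is therefore a description. Others among the 15 were the basolateral glucose transporter Slc2a2 (3.52), the liver and gut peptide Leap2 (3.49), the glutathione transferase Gstm3 (3.48), the cytochrome Cyp2b10 (3.42), the peptidase Mme (3.12) and the cytokine Il18 (3.03). The same 15 genes led with the 99 enterocyte-profile barcodes.

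By role, fat uptake and chylomicron assembly was higher in 23 of 24 genes with a median of 1.84. Mttp, which loads lipid onto apolipoprotein B, stood at 768 CPM beside 135 CPM (2.50), the fat-resynthesis enzyme Mogat2 at 304 beside 53.7 CPM (2.50), and Creb3l3, a transcription factor of lipid metabolism, at 298 beside 44.4 CPM (2.74). Scarb1, a lipoprotein receptor, was the exception at 1.48 beside 2.50 CPM (-0.76). Retinoid handling was higher in 5 of 10 genes and lower in 2: next to Rbp2, the retinaldehyde enzymes Aldh1a1 and Rdh7 had ratios of 3.22 and 3.05, whereas Isx, a retinoid-responsive repressor, had 0.70 and Lrat, which esterifies retinol, 0.14. Among the lower was Cyp26b1, a cytochrome that breaks down retinoic acid (7 UMIs, -1.35, interval -2.67 to -0.28), whose sign turned to 0.58 over comparison barcodes with at least 2 Epcam UMIs and to 0.21 with Fabp1 at or above 1% of UMIs. With the 99 barcodes 3 were lower, as Stra6l, a retinol transporter gene, had 21 UMIs in the 113 barcodes and none in the 99. Brush border hydrolases were higher in 14 of 18 (median 2.08), with the disaccharidase Sis at 1725 beside 322 CPM (2.42) and lactase, Lct, at 129 beside 17.7 CPM (2.87). Nutrient transporters were higher in 13 of 17 (median 1.50) and genes of drug and xenobiotic metabolism in 30 of 32 (median 1.89). For brush border structure 13 of 18 genes were higher (11 of 18 with the 99 barcodes, median 1.15).

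Genes placed along the villus axis were counted in the same way. Of 12 villus bottom genes 9 were higher (median 2.33), led by Reg1, Adh6a, Gsta1 and Il18 and with the antimicrobial lectin Reg3b at 27749 beside 4494 CPM (2.63). All 10 measured mid-villus genes were higher (median 2.10). At the villus tip 6 of 13 were higher and 4 lower, with a median of -0.26 beside -0.18 over all genes: Apoa4, a chylomicron apolipoprotein, had 2.50, while Ada and the nucleoside transporter Slc28a2 had -2.50 (5 UMIs) and -2.71 (2 UMIs, interval -6.35 to -1.43) and the transcription factor Klf4 had -1.11. Crypt and cell cycle genes were lower in 14 of 15 (median -3.81), with Lgr5 at 3 UMIs in the 113 barcodes (0.888 CPM) beside 24.6 CPM (-4.79, interval -7.07 to -3.24) and the proliferation gene Mki67 at 7.99 beside 190 CPM. Among the 10 lowest ratios were the hormone gene Gip (12 UMIs, -6.73) and the ileal gene Fabp6 (22.5 beside 1683 CPM, -6.22). Immediate early and stress genes were lower in 7 of 13, with a median of -1.24.

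**Figure D3:**
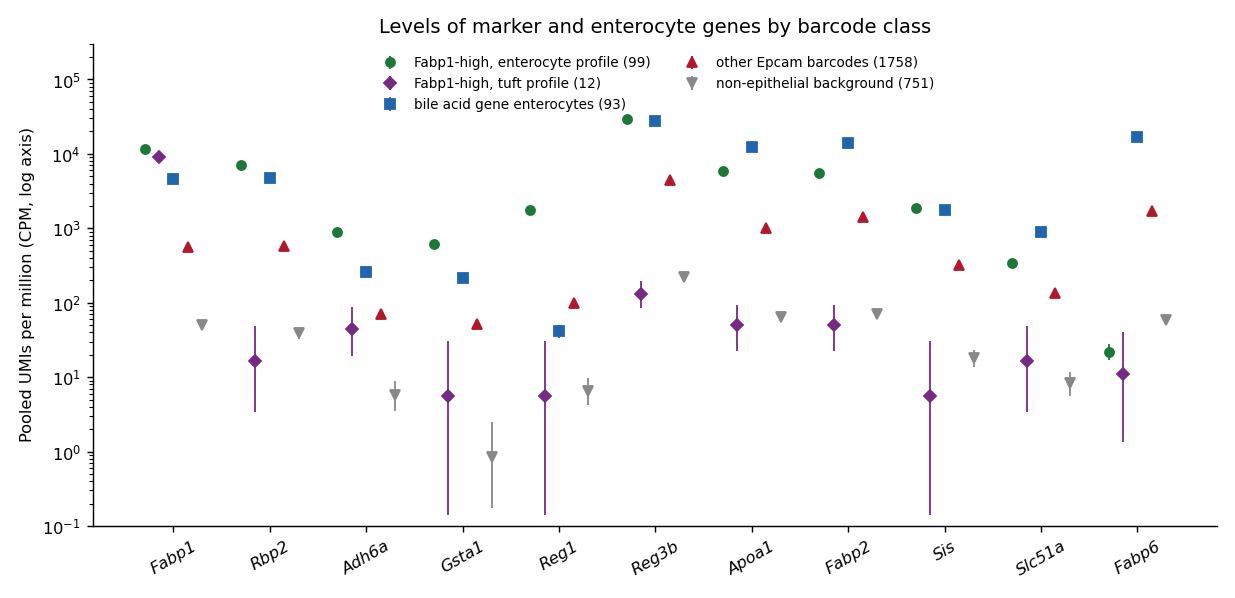
Pooled CPM (log axis) of 11 genes in the 99 enterocyte-profile and 12 tuft-profile Fabp1-high barcodes, 93 bile acid gene enterocytes, 1758 other Epcam barcodes and 751 background barcodes; bars are exact 95% Poisson intervals. Rbp2 stands at 7168 CPM in the enterocyte-profile and 16.6 CPM in the tuft-profile barcodes, and Fabp6 at 22.0 CPM beside 16980 CPM in the bile acid gene enterocytes.

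The second comparison was with the bile acid gene enterocytes, 93 kept barcodes in which Slc10a2, Enpp7 and Cubn summed to at least 5 UMIs. This comparison asks how 2 kinds of absorptive cell differ. The class was mixed: 15 of its barcodes also passed the Fabp1 limit, with 5 to 38 UMIs of the 3 genes. It also held more Paneth cell transcripts, with the 8 markers at 18865 CPM beside 2267 CPM in the 113 and up to 40349 such UMIs in a barcode. All 8 were lower by at least 2-fold in the 113 (median -2.84). In the Fabp1-high set 93 barcodes had no UMI of Slc10a2, Enpp7 or Cubn and 3 had 4, the most allowed. Results are also given against 75 bile acid gene enterocytes, without the barcodes over the Fabp1 limit or with at least 500 Paneth or goblet marker UMIs, a choice made after the values were seen. The members were not trimmed by Paneth markers. For the 99 against the 75 none of 6 measured Paneth markers was past 2-fold (median -0.38). Slc10a2, Enpp7 and Cubn set both classes, so a difference in distal genes is built into this comparison. Fabp1, which chose the members, also removed barcodes from the 75. Counts of distal genes and values against the 75 are therefore given as a description.

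Of 4056 genes, 138 (3.4%) were higher in the 113 Fabp1-high barcodes and 192 (4.73%) lower, with a median of 0.08. With the mean of each barcode's CPM in place of pooled CPM 320 were higher and 296 lower. With the 99 enterocyte-profile barcodes 95 of 3807 (2.5%) were higher and 203 (5.33%) lower, and for the 99 against the 75 barcodes 131 of 3687 (3.55%) were higher and 174 (4.72%) lower. The choice of members decided which genes led. With all 113, 14 of the 15 highest genes, among them Fyb (6.97, interval 5.69 to 10.60), Dclk1 (6.21) and the taste channel Trpm5 (5.81, interval 4.90 to 12.70), had almost all their UMIs in the 12 tuft-profile barcodes: for Dclk1, 483 of 485. With the 99, the highest were Reg1 (5.39, interval 5.12 to 5.68), Sult6b2 (4.79, 3.20 to 7.09), the carboxylesterase Ces2g (3.54, 2.73 to 4.47), Adh1 (2.88, 2.59 to 3.19) and the lipid esterase Aadac (2.30, 2.04 to 2.56). Next came Onecut2, a transcription factor, at 2.24 (93.2 beside 19.8 CPM), the caspase Casp6 at 2.23 (425 beside 90.5 CPM) and S100g, the intestinal calcium-binding protein calbindin, at 2.05 (168 beside 40.4 CPM). Sizes depended on the comparison class: for the 99 against the 75, Adh1 had 3.76 (3.31 to 4.26) and Aadac 3.20 (2.81 to 3.62).

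Fabp6 had the lowest ratio of this comparison. No Fabp1-high barcode held more than 4 of its UMIs, and the median was 0; in the bile acid gene enterocytes the median was 119 UMIs. Pooled, it stood at 22.5 CPM (76 UMIs) beside 16980 CPM (43740 UMIs), a log2 ratio of -9.56 (-9.90 to -9.24), and the Fabp1-high value was below the 58.6 CPM of the background barcodes. The phospholipase Plb1 followed at 1.18 beside 223 CPM (-7.56), Tmigd1, a brush border adhesion protein, at 2.37 beside 389 CPM (-7.36), Clca4a (2 UMIs, -7.29, interval -10.93 to -6.01) and the myelin protein gene Pmp22 at 2.07 beside 244 CPM (-6.88). The meprin subunit Mep1a, the ninth in this order, stood at 30.2 beside 427 CPM (-3.82). The basolateral bile acid exporter subunits were lower but present: Slc51a at 320 beside 884 CPM (-1.47) and Slc51b at 199 beside 600 CPM (-1.59). Of 37 measured genes of a distal enterocyte list, 23 were lower by at least 2-fold and none was higher (median -1.57); with the 99 barcodes 25 were lower, and for the 99 against the 75 barcodes 26 were.

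Of 39 measured genes of the proximal list, 5 were higher and 1 lower in the 113 barcodes (median 0.20 beside 0.08 over all genes), and for the 99 against the 75 barcodes 10 were higher and none lower (median 0.71 beside 0.03). Gsta1 stood at 582 beside 218 CPM (1.41), Adh6a at 821 beside 261 CPM (1.65), Gstm3 at 415 beside 141 CPM (1.55), Gsta4 at 147 beside 41.5 CPM (1.83) and the creatine kinase Ckb at 721 beside 272 CPM (1.41). For the 99 against the 75 these ratios were 2.37 for Gsta1, 2.72 for Adh6a, 2.96 for Gstm3, 2.25 for Gsta4 and 2.95 for Ckb. The Rbp2 ratio was 0.49 (0.46 to 0.52) for the 113 and 0.59 (0.56 to 0.62) for the 99 barcodes against the 93, and 2.12 (2.07 to 2.18) for the 99 against the 75. Of 6 retinoid genes none was past 2-fold against the 93 and all had ratios above 0 (median 0.67); for the 99 against the 75, 4 of 6 were higher by 2-fold.

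Most digestive genes were no higher than in the bile acid gene enterocytes. Fat uptake genes were lower in 4 of 22 and higher in none (median -0.41): Apoa1 stood at 5450 beside 12403 CPM (-1.19), Apoa4 at 645 beside 1490 CPM (-1.21), Fabp2, the intestinal fatty acid binding protein, at 5107 beside 14006 CPM (-1.46) and Apoc2, the lipoprotein lipase cofactor, at 269 beside 981 CPM (-1.87). For the 99 against the 75 barcodes only Fabp2 was lower by 2-fold (-1.25). Mttp (0.30), Mogat2 (0.05) and Dgat1 (-0.02) were close to even. Hydrolases were lower in 8 of 18 (median -0.93), yet Sis had -0.05, and transporters were lower in 6 of 15, with the peptide transporter Slc15a1 at -1.40 and the amino acid transporter Slc6a19 at -1.88 and Slc2a2 at 0.02. Of 12 villus bottom genes 5 were higher and none lower (median 0.66): Reg1, Adh6a, Gsta1, Il18 (1.50) and Dmbt1 (1.56), while Reg3b and Reg3g were even at 0.02 and -0.01. Of 10 tip genes 4 were lower and none higher. The MHC class II gene H2-Aa was lower at 96.8 beside 311 CPM (-1.68), and Maf, a transcription factor, stood at 301 beside 552 CPM (-0.88); both genes were also abundant in the background barcodes, at 2680 and 486 CPM. Gata4, a transcription factor of the proximal small intestine, was at 45.9 beside 24.5 CPM (0.91).

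**Figure D4:**
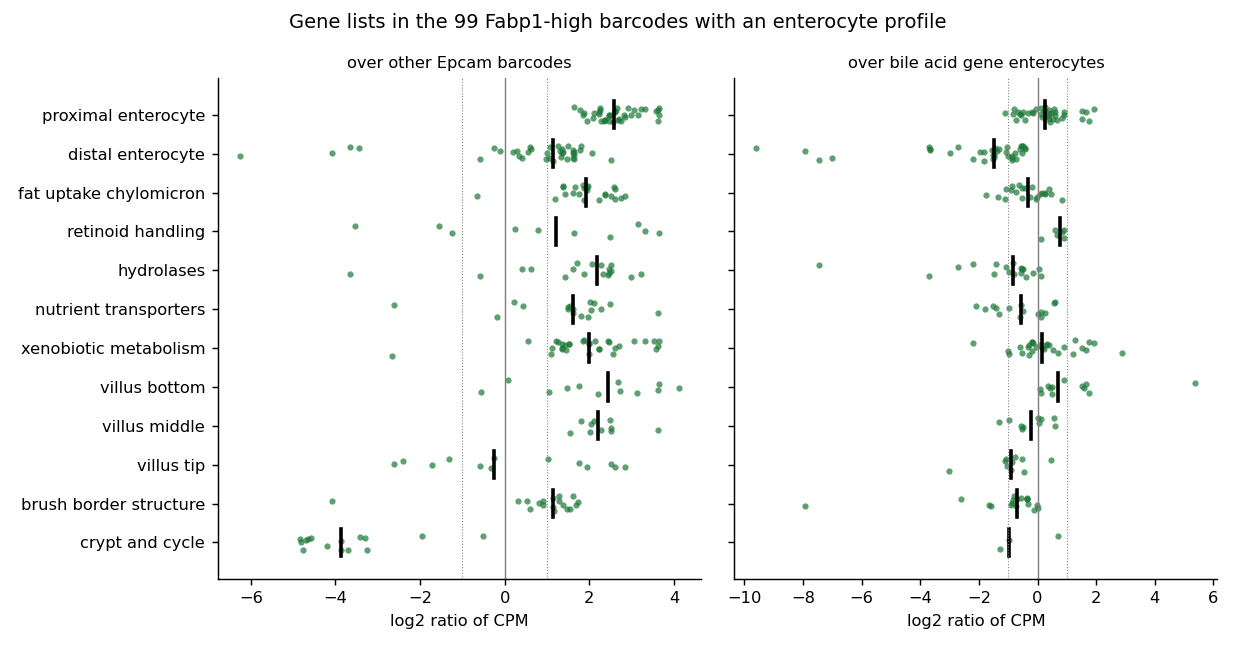
log2 ratios of CPM for the genes of 12 lists in the 99 enterocyte-profile barcodes, over other Epcam barcodes (left) and over bile acid gene enterocytes (right); each point is a gene with at least 100 UMIs in its higher class, black bars are medians and dotted lines mark 2-fold. The proximal list has medians of 2.58 and 0.27, and the distal list of 1.14 and -1.48.

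To see how the members vary among themselves, barcodes were split into 3 groups of nearly equal size, ordered by the UMIs of 14 villus tip genes as a share of those of the tip genes and 12 bottom genes, at 2000 UMIs each. The order was made from these same barcodes and its genes are not read as results. It is a share of UMIs and not a measured position: in the 99 barcodes Reg3b gave 58.4% of the bottom list's UMIs and 50.2% of those of both lists, and Apoa1 70.4% of the tip list's. A second order, without Reg3b and Reg3g in the bottom list, was therefore made after the values were seen. Over the 111 barcodes of that depth, with 2 left out, 11 of the 12 tuft-profile barcodes fell in the tip-most group and 74 of 1794 genes (4.12%) were at least 2-fold higher there and 10 (0.557%) lower, with Dclk1 at 560 CPM beside 0.761 CPM in the bottom-most group. Within the 97 enterocyte-profile barcodes of that depth, with 2 left out, 18 of 1607 genes (1.12%) were higher in the tip-most group and 3 (0.187%) lower, in groups of 33, 32 and 32 barcodes. The tip list made up a median of 7.41%, 16.6% and 34.3% of the listed UMIs. In the order without Reg3b and Reg3g, 59 of 1576 genes (3.74%) were higher in the tip-most group and 77 (4.89%) lower, and the outer groups shared 18 of 32 tip-most and 19 of 33 bottom-most barcodes with the first order. The counts thus differed between the orders.

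Apoc2 had the highest ratio along this order, going from 110 CPM in the bottom-most to 128 CPM in the middle and 741 CPM in the tip-most group (log2 ratio 2.76, 2.48 to 3.04). Leap2 went from 38.0 over 98.4 to 177 CPM (2.22), Gstm1, a glutathione transferase, from 77.6 over 150 to 330 CPM (2.09), Lct from 65.8 to 191 CPM (1.54) and Fabp2 from 3339 over 5144 to 8874 CPM (1.41). The interferon-induced gene Isg15 went from 36.3 to 125 CPM (1.79). Rbp2 went from 5222 to 10604 CPM (1.02), and Fabp1, which chose the barcodes, went from 9554 to 15795 CPM (0.73). Lower in the tip-most group were the phospholipase Pla2g4c, from 187 to 51.4 CPM (-1.86), and the gasdermin Gsdmc2, from 92.0 to 31.1 CPM (-1.57). Proximal list genes outside the order lists were higher by 2-fold in 8 of 32, beside 1.12% of all genes. Above 0 were 31 of 32 (median 0.66 beside 0.04 over all genes). Apoa1, an enterocyte marker, gave most of the tip list's UMIs in these same barcodes, so these counts are given as a description. Over the 111 barcodes, where most tuft-profile barcodes lay in the tip-most group, 1 of 30 was higher, beside 4.12% of all genes. There 17 of 30 were above 0 (median 0.16). Sis (0.32), Mttp (0.32) and Slc5a1 (0.44), the sodium-glucose cotransporter, differed less. The remaining gene lower there was an unnamed gene model, and Isg15, Pla2g4c and Gsdmc2 were chosen after their values were seen. The group with the most tip UMIs was also the shallowest, with a median of 30900 UMIs beside 36698, and the part of depth was not tested.

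Some of these differences turned with the order. Without Reg3b and Reg3g in it, Gstm1 was lower in the tip-most group, at 136 beside 276 CPM (-1.02, -1.33 to -0.71). Reg3b itself was then higher there, at 44332 beside 18111 CPM (1.29). Apoc2 had a ratio of 3.38 (3.03 to 3.75), Leap2 of 3.75 (3.07 to 4.51), Lct of 2.53, Fabp2 of 1.47, Isg15 of 1.53 and Rbp2 of 1.21, in the same direction as before. Slc5a1 had 1.58, Sis 0.91 and Mttp 0.67. Pla2g4c (-1.45) and Gsdmc2 (-1.69) were again lower in the tip-most than in the bottom-most group, but both were highest in the middle group. Pla2g4c went from 82.1 over 206 to 29.9 CPM and Gsdmc2 from 60.9 over 95.3 to 18.9 CPM. Of 31 proximal genes 11 were higher by 2-fold, beside 3.74% of all genes, and 29 were above 0 (median 0.68 beside -0.10 over all genes). Over the 111 barcodes 8 of 30 were higher and 25 above 0 (median 0.58), beside 4.41% of all genes higher and 4.35% lower.

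The same rule was applied to the libraries that did not define it. It found 74 of 540 kept barcodes (13.7%) in the control organoids, 292 of 1037 (28.2%) in the cocultured organoids and 0 of 6188 in the large intestine. An approximate upper limit for the share there is 0.0485%, which is not the exact interval used for other shares. None of the organoid barcodes had a tuft profile and 1 had a goblet profile. Fabp1, whose level the rule fixes in part, was at 15989 CPM among control and at 14000 CPM among cocultured organoid barcodes. Rbp2 was at 12466 and 11479 CPM beside 6695 CPM in the 113 tissue barcodes, Adh6a at 1289 and 1511 beside 821 CPM, and Gsta1 at 566 and 563 beside 582 CPM. The regenerating gene lectins were lower in the organoid barcodes: Reg3b was at 0.708 and 22.1 beside 27749 CPM, Reg3g at 10.4 and 8.57 beside 8160 CPM, Reg3a at 1.24 and 2.23 beside 465 CPM, and Reg1 at 0.531 and 10.1 beside 1623 CPM. Alpi, intestinal alkaline phosphatase, was higher in the organoid barcodes, at 1257 and 986 beside 164 CPM, as was Apoa4, at 5376 and 2955 beside 645 CPM, while Aldh1a1 (19.8 and 33.4 beside 205 CPM), Mme (11.5 and 14.4 beside 157 CPM) and Fabp2 (1422 and 1612 beside 5107 CPM) were lower.

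**Figure D5:**
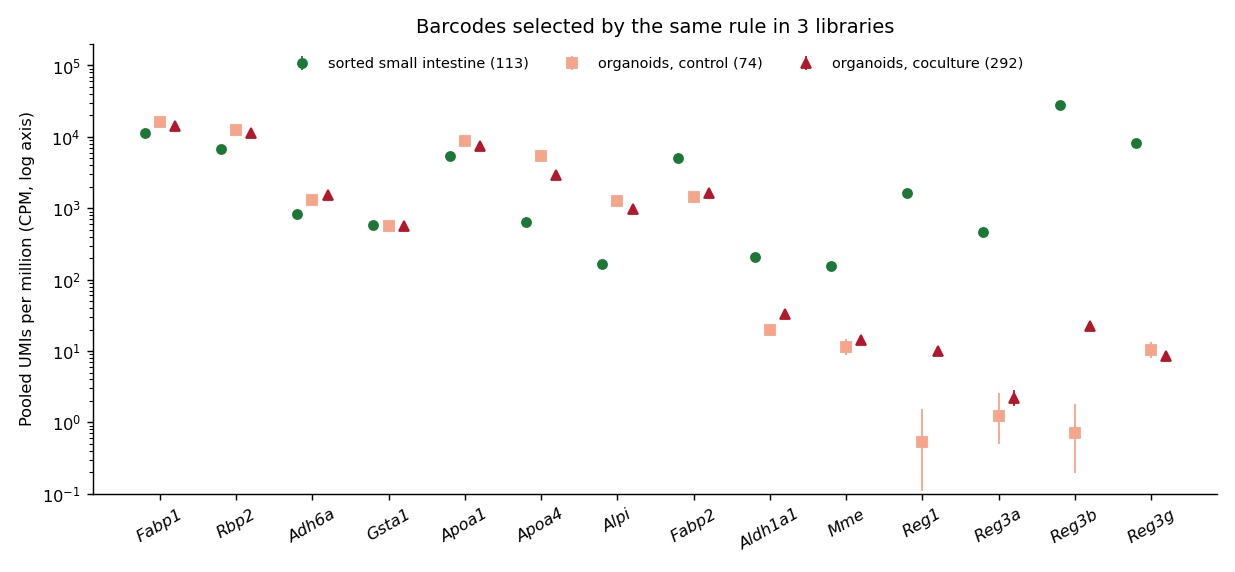
Pooled CPM (log axis) of 14 genes in the barcodes found by the same rule in the sorted small intestine (113), control organoids (74) and cocultured organoids (292), with exact 95% Poisson intervals. Gsta1 lies between 563 and 582 CPM in all 3, Rbp2 is at 6695 CPM in the tissue and at 12466 and 11479 CPM in the organoids, and Reg3b is at 27749 CPM in the tissue and at 0.708 and 22.1 CPM in the organoids.

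In the Visium sections each spot collects RNA from a small area with several cells, so fewer cells of a type and less RNA per cell cannot be told apart. Fabp1 itself was low: the small intestinal sections had 48.3 and 45.2 CPM, the large intestinal ones only 2 and 4 UMIs. By contrast Fabp6 stood at 5815 and 5149 CPM and Slc10a2 at 831 and 962 CPM in the small intestinal sections. Of the 15 leading genes 9 had at least 100 UMIs there, and 5 were higher in both small intestinal sections by at least 2-fold, against a background of 13.9% of 13590 genes: Rbp2, Adh6a, Mme, Aldh1a1 and Akr1b7. Rbp2 was at 214 and 248 CPM beside 16.2 and 20.5 CPM in the large intestinal sections, and Adh6a at 33.8 and 43.3 beside 0.873 and 0.844 CPM. Gsta1, Gstm3, Papss2 and Il18 were higher in the large intestinal sections, with Il18 at 22.3 and 21.0 beside 182 and 189 CPM. Reg1 stood at 1.48 and 1.13 CPM in the small intestinal sections, far below Reg3b at 35342 and 30896 CPM. Duplicate sections were not equally close for every gene: Mme was at 10.5 and 16.2 CPM beside 0.121 and 0.205 CPM for large intestine, and Gsta1 at 14.1 and 9.17 beside 25.2 and 25.0 CPM. As the sections of a tissue are technical duplicates, their closeness does not show how far animals differ.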

How the data were processed

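Single-cell libraries and Visium sections were deposited as UMI counts per gene and barcode, made by the authors with Cell Ranger 6.0.1 and Space Ranger 1.2.1 per the file headers, on mm10 per the submitters' processing notes; the annotation release was not given in the sources used here. The members and gene lists were chosen with earlier results of these data known. Counts were pooled per class and given as CPM with exact Poisson intervals, ratios with exact intervals for 2 Poisson counts, and shares with exact Clopper-Pearson intervals, in Python 3.11.15 with scipy 1.17.1. Genes needed 100 UMIs in the higher class, and ratios used a floor of 3 UMIs. Named genes were the 15 highest and 10 lowest in each comparison and genes of the lists; mitochondrial, ribosomal protein, haemoglobin, immunoglobulin, sex and unnamed genes were not named, and a listed gene is not reported here. Doublets were not removed; without the highest Scrublet scores (0.8% per 1000 barcodes) 61 barcodes left, 3 of them Fabp1-high, among them both goblet-profile barcodes and 0 of the tuft profile. The calculations were tested on simulated data. Total UMIs per library ranged from 24356162 to 142501907, with 78482770 in the small intestinal library. Alternatives in Fabp1 and bile acid gene limits, barcode filters, scaling, gene filter, thinning and comparison class were tried.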

Additional observations from a re-analysis of the deposited data

Results flagged for a closer look

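A set of 5 small intestinal barcodes met every condition of the rule except the mitochondrial limit, and these barcodes entered no comparison. They had a median of 24.4% mitochondrial UMIs and 9661 UMIs, and none had a tuft profile. Without mitochondrial genes in the total, Fabp1 stood at 13517 CPM beside 12610 CPM in the 113 Fabp1-high barcodes, Rbp2 at 4564 beside 7443 CPM, Adh6a at 917 beside 913 CPM and Reg1 at 502 beside 1804 CPM.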

How the results depend on the processing

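With 1 library per condition all intervals cover counting error only, and genes with few UMIs have wide ones. The number of Fabp1-high barcodes was 178 with Fabp1 at or above 0.25% of UMIs, 46 with 1%, and 58 with at most 10% mitochondrial UMIs; under the other alternatives it lay between 98 and 119. Over other Epcam barcodes, the counts of genes past 2-fold stayed between 863 and 1305 higher and between 2116 and 3336 lower. Over bile acid gene enterocytes, 320 genes were higher and 296 lower with the mean of each barcode's CPM, and 466 higher and 477 lower with at least 20 UMIs, where more genes were counted. The higher count there was 275 with Fabp1 at 0.25% and 60 at 1%, and the lower count was 95 with at most 10% mitochondrial UMIs, where 33 bile acid gene barcodes remained; the cause was not tested. At 1000 UMIs per barcode the share with a UMI was 33.6% for Gsta1 and 50.4% for Adh6a, and without thinning it was 85.8%, 90.3% and, for Reg1, 61.9%. Between the outer groups along the villus order, 31 genes were higher and 5 lower at 1000 UMIs, and 18 and 3 without the tuft and goblet profiles; without Reg3b and Reg3g in the order the lower count was 75, and 77 without those profiles as well. Of 2183 alternative values for 137 gene ratios, 10 changed sign, 8 of them of tuft genes. Over other Epcam barcodes, Cyp26b1 went to 0.58 with at least 2 Epcam UMIs in the comparison barcodes and to 0.21 with Fabp1 at 1%, Fyb (1.00) went to -4.51 without the tuft and goblet profiles and to -1.23 with members under 2 non-epithelial UMIs, and Trpm5 (1.27) to -4.83 and -0.86. Over bile acid gene enterocytes, Dclk1 went to -1.02 and Trpm5 to -0.29 with the 99 barcodes, and to -1.22 and -0.80 against the 75. Ratios that kept their sign often moved in size. A mitochondrial limit of 10% moved 95 of the 137 ratios. Lowering the Fabp1 limit to 0.25% moved 87, and raising it to 1% moved 83. Averaging CPM over barcodes moved 85, and centring on the median moved 58. Fewer moved under the other settings, such as 5 without the highest Scrublet scores and 1 with at least 1000 detected genes. Leaving out either Visium section of each tissue kept the count of leading genes at 5. No paired analysis was possible because each single-cell group is 1 library and the Visium sections are technical duplicates with no test.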
